A study of Mus musculus with 6 samples.

Results

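Aquaporins are membrane channels that let water cross the lipid bilayer, and the aquaglyceroporins among them (Aqp3, Aqp7 and Aqp9) also pass glycerol and other small neutral solutes. In skin, Aqp3 is known as the channel of the basal epidermis, where it supplies water and glycerol. Aqp5 is known from secretory glands, Aqp7 from fat cells, Aqp1 from capillary endothelium and red blood cells, and Aqp4 from astrocytes and the membrane of fast skeletal muscle fibres. The genes described are the 7 aquaporins Aqp1, Aqp3, Aqp4, Aqp5, Aqp7, Aqp9 and Aqp11, out of 22823 genes and unnamed transcripts tested. They were taken by symbol, through the probes whose accession maps to them, and 10 probes do so. The 7 were chosen by their KO and WT values in these same arrays being already known, so the differences between the groups are given as a description and carry no test.

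The series profiled untreated skin of 6 male mice, of mixed background with C57Bl6 and 129Sv contributions, on 1-colour Agilent arrays. The labels place the skin in telogen, the phase in which hair follicles rest. The KO group held 3 mice with a conditional deletion of the transcription factor Sox4 in skin, aged 17, 18 and 16 weeks in replicates 1 to 3. The WT group held 3 wild-type mice, aged 20, 19 and 18 weeks. The promoter that drives the deletion is not known here, and KO mice were on average younger than WT mice. Arrays of both groups shared slide 1 (KO replicate 3 and WT replicate 1) and slide 2 (KO replicate 1 with WT replicates 2 and 3), while KO replicate 2 was alone on slide 3.

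The Sox4 check followed the labels. Its brighter probe read 78.7, 69.0 and 59.5 units in KO skins, against 503.7, 764.2 and 735.2 units in WT skins, with no overlap; where this probe sits relative to the deletion is not known here. Epidermal markers were present on every array: all 12 of 12 were measured, and the log2 of their summed level lay between 10.7 and 10.8 in KO and between 10.8 and 11.1 in WT. Hair shaft and inner root sheath markers, known from growing follicles, went against the telogen label in KO replicates 1 and 2: the root sheath keratin Krt71 read 7.22, 6.72 and −2.27 in KO, against −2.39, −1.19 and −1.59 in WT, on the log2 scale defined below. With KO replicate 3 as the only KO array, an alternative chosen after seeing the data that assumes it varies like WT, the differences defined below were 2.10 (SE 0.51) for Aqp4, −0.46 for Aqp3, −0.41 for Aqp5, −0.46 for Aqp7, −0.53 for Aqp9, 0.53 for Aqp11 and 0.25 for Aqp1. Beside the values from all 3 KO arrays given under each gene, every sign was the same by the probe used in the fit. The values of Aqp11 and Aqp1 were over 1.5 times as large. By a dimmer Aqp5 probe the sign was not the same. KO replicate 3 read −2.79, below the WT mean of −2.43, where all 3 KO arrays gave a difference of 0.52. Between 52.1% and 66.4% of probes were well above background in KO, and between 55.2% and 58.7% in WT. Levels below are log2 of the processed signal minus the 75th percentile of that array, so 0 is the level of that percentile. A difference is the KO mean minus the WT mean on that scale. Probes differ in how strongly they bind, so no level is set against that of another probe.

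Promoter sequence is shown for the epidermal channel Aqp3 and for Aqp5, whose probes disagreed, because a transcription factor was deleted in these mice and these were the only members with a TATA box or a palindromic E-box in the window searched. Both are the 250 bases upstream of the RefSeq start site, on build GRCm38.p6, and capitals mark the match. The Aqp3 window is chr4:41098184-41098433 on the minus strand, with TATAAA beginning 29 bases before the start site.
Aqp3: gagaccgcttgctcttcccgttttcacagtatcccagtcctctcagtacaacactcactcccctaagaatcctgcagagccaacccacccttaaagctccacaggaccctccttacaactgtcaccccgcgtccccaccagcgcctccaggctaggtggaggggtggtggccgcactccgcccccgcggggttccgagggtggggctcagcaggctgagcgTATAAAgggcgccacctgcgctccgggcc
The Aqp5 window is chr15:99590778-99591027 on the plus strand, with CACGTG beginning 87 bases before the start site.
Aqp5: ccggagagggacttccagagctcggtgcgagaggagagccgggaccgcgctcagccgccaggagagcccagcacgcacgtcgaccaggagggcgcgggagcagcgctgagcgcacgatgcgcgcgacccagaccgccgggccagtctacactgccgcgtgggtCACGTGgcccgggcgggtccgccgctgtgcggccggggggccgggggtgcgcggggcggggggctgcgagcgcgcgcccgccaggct
Of 32851 promoter windows of this length, 12.4% held TATAAA and 6.02% held CACGTG, searched on both strands; CACGTG is also an instance of the wider E-box CANNTG, held by 66.2%. Guanine and cytosine made up 64.0% of the Aqp3 window and 78.4% of the Aqp5 window. The SOX-type letters AACAAAG, on either strand, were in 5.03% of all windows and in none of those of the 6 members with a window in the table (Aqp1, Aqp3, Aqp5, Aqp7, Aqp9 and Aqp11). That says only that these letters are missing from this stretch, and no binding was measured. By RefSeq order, Aqp7 and Aqp3 are neighbours on chromosome 4, and Aqp2, Aqp5 and Aqp6 lie side by side on chromosome 15, with 0 protein-coding genes between neighbours.

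Aqp4 was the member that differed most between KO and WT skin. Its brighter probe read 727, 611 and 556 units in KO replicates 1, 2 and 3, against 165.5, 111.7 and 80.4 units in WT replicates 1, 2 and 3. The lowest KO skin lay above the highest WT skin, and WT replicate 1 was the WT skin nearest to KO. On the log2 scale Aqp4 averaged 0.23 ± 0.05 in KO and −1.92 ± 0.65 in WT (SD, n = 3 each). The difference was 2.16 (SE 0.31), or 4.46-fold. The KO skins were close to each other, and the spread lay almost wholly in WT. A dimmer probe to the same transcript gave the same picture, with 506, 486 and 388 units in KO and 127.0, 66.1 and 52.8 units in WT, a difference of 2.28. Both probes were well above background on all 6 arrays, and on both WT replicate 1 was the highest WT skin.

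The size of the Aqp4 difference varied with the slide. It was 1.37 within slide 1 and 2.55 within slide 2, and a block for slide gave 2.04 (SE 0.31). With WT replicate 1 left out it was 2.52. With age as a covariate it was 2.82 (SE 0.38), and after normexp background correction with quantile normalization it was 1.68 (SE 0.20). The direction held in each of these.

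Markers of fast skeletal muscle had the same direction as Aqp4. All 17 of 17 were measured and had higher means in KO, 13 of them without overlap, where 7.58% of all genes and transcripts tested lay wholly above WT. Their median difference was 1.82, against −0.09 over all genes and transcripts. The log2 of their summed level lay between 11.5 and 11.9 in KO and between 9.40 and 11.3 in WT. The list score, the median over members relative to their WT means, was 1.79, 2.07 and 1.54 in KO replicates 1, 2 and 3, against 1.22, −0.32 and −0.87 in WT replicates 1, 2 and 3. WT replicate 1 thus stood near the KO skins in muscle markers and nearest to them in Aqp4. The calcium pump Atp2a1, the glycogen phosphorylase Pygm, the creatine kinase Ckm and the calcium release channel Ryr1 had the smallest p of the list, with differences of 2.17 (SE 0.53), 2.04 (SE 0.52), 1.98 (SE 0.54) and 1.80 (SE 0.51). By limma, 14 of the 17 had an unadjusted p under 0.05, where 11.7% of all tested did, and 0 passed the threshold over all genes (Benjamini-Hochberg adjusted p under 0.05, passed by 0.0219% of all tested). Within slide 1 the muscle score differed by 0.32 and within slide 2 by 2.38, where Aqp4 differed by 1.37 and 2.55. Adding that score as a covariate, an alternative chosen after seeing the data, gave an Aqp4 difference of 1.13 (SE 0.20). The part of muscle content in the Aqp4 difference was not tested further than this. In whole skin, more cells of a type and more RNA per cell cannot be told apart.

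Slow muscle markers had no common direction. Of 10, 8 were measured, 4 with higher and 4 with lower means in KO, and the median difference was −0.09, from −0.52 to 0.68 with 1 array left out. The oxygen store Mb differed by 1.59 (SE 0.49) and the fatty acid carrier Fabp3 by 1.06 (SE 0.34), both without overlap. Of the 8, these 2 lay wholly above WT, where 7.58% of all genes did. The slow myosin Myh7 had a difference of −0.68 (SE 0.63) and the Z-line protein Myoz2 of 1.53 (SE 0.89), both with overlap. Myh7 read −3.21, −5.11 and −2.88 in KO. Its signal in KO replicate 2 was close to background, which limits its difference. By limma, 2 of the 8 had an unadjusted p under 0.05, beside 11.7% of all genes, and 0 passed the threshold over all genes.

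**Figure D1:**
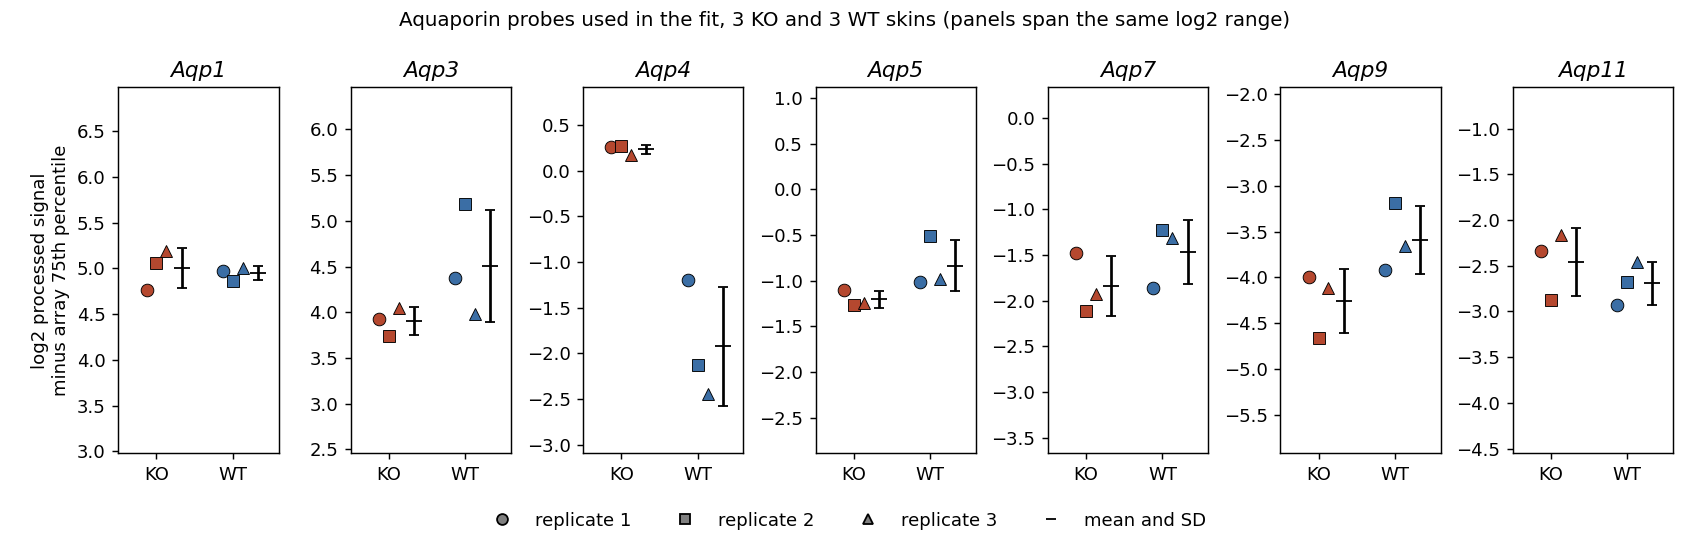
Log2 processed signal minus the array's 75th percentile for the probe of each aquaporin that entered the fit, in 3 KO skins (left of each panel) and 3 WT skins (right); symbols mark the replicate and bars the mean and SD. Aqp4 lies between 0.17 and 0.26 in KO and between −2.45 and −1.20 in WT, and the other 6 genes differ by less than 1 log2 unit.

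Genes with profiles nearest to that of Aqp4 were sought among 14918 genes with a symbol, by the root mean square distance between profiles over the 6 arrays after removing each profile's mean. The nearest were Ppp1r27, a regulatory subunit of protein phosphatase (distance 0.22), the chloride channel Clcn1 (0.26), the muscle phosphoglycerate mutase Pgam2 (0.26), the phosphatase Dusp13 (0.28) and the sarcomere protein Mypn (0.28). Ppp1r27 read 2.88, 3.41 and 2.66 in KO, against 1.46, 0.58 and 0.48 in WT. Clcn1 read −2.47, −1.87 and −2.46 in KO, against −3.26, −4.29 and −4.82 in WT. Its signal in WT replicates 2 and 3 was close to background, which limits that profile. In each of the 5, WT replicate 1 was the highest WT skin, and KO replicate 2 was the highest skin of all. In Aqp4, KO replicates 1 and 2 were level at 0.26. The 6 arrays are shared by all profiles, and the likeness is a description. Features shared with Aqp4 follow from choosing these genes by their distance to it.

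**Figure D2:**
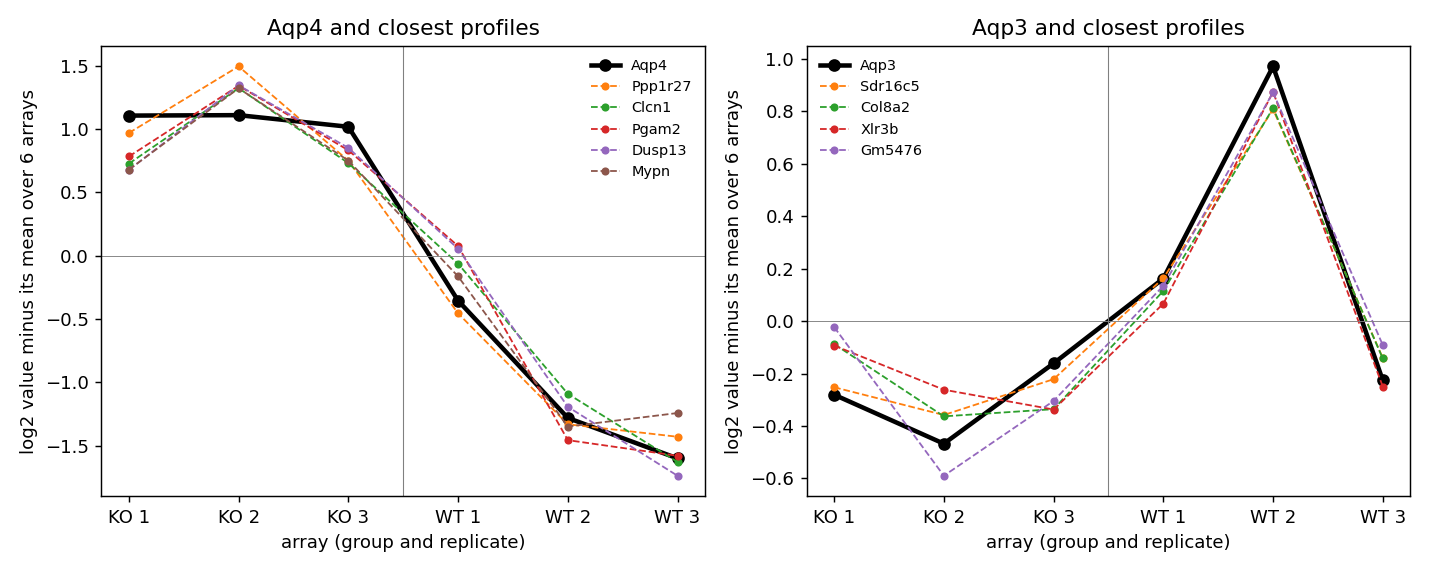
Log2 value minus its mean over the 6 arrays, by array (KO left, WT right), for Aqp4 and Aqp3 (thick black lines) and the genes described as nearest to each. The Aqp4 set is high in all 3 KO skins and intermediate in WT replicate 1, while the Aqp3 set peaks in WT replicate 2.

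Aqp4 is held at the muscle membrane by syntrophin within the dystrophin complex, and 15 of 16 genes listed for that complex and its partners were measured. Of these, 11 had higher and 4 lower means in KO, with a median difference of 0.25 (0.13 without WT replicate 2, 0.15 without KO replicate 2 or 3, and 0.16 with slide as a block); 7 did not overlap (6 higher, 1 lower), where 19.3% of all genes and transcripts did not. The sarcoglycans Sgca and Sgcb differed by 1.66 (SE 0.41) and 0.44 (SE 0.16), and dystrophin, Dmd, by 1.51 (SE 0.49). Among the syntrophins, adaptor proteins of the complex, differences were −0.06 for Sntb1, −0.18 for Sntb2 and −0.22 for Sntg2. By limma, 4 of the 15 had an unadjusted p under 0.05, beside 11.7% of all genes, and 0 passed over all genes.

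Aqp3 was lower on average in KO, and WT replicate 2 set most of that difference. It read 9228, 6801 and 8151 units in KO, against 7864, 17670 and 6915 units in WT. In units WT replicate 2 stood alone, and the other 5 skins lay between 6801 and 9228. Scaled to each array it read 3.93, 3.74 and 4.05 in KO, against 4.37, 5.18 and 3.98 in WT. On that scale WT replicates 1 and 2 lay above every KO skin, and the groups overlapped through WT replicate 3. On the log2 scale the means were 3.90 ± 0.15 in KO and 4.51 ± 0.61 in WT (SD, n = 3 each), a difference of −0.61 (SE 0.30). Without WT replicate 2 the difference was −0.27. Within slide 1 it was −0.32 and within slide 2 it was −0.65, and a block for slide gave −0.51.

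The epidermal list that goes with Aqp3 differed less. All 12 of 12 members had lower means in KO, with a median of −0.20 (−0.10 without WT replicate 2) and differences from −0.33 to −0.09, where 64.1% of everything tested had a lower mean in KO. Of the 12, 3 lay wholly below WT, where 11.7% of all genes did. The filaggrin relative Flg2 differed by −0.26 (SE 0.13), the cornified envelope protein Lor by −0.17 (SE 0.11), the epidermal factor Trp63 by −0.21 (SE 0.13) and the desmoglein Dsg1a by −0.24 (SE 0.17). By limma, 0 of the 12 had an unadjusted p under 0.05, beside 11.7% of all genes, and 0 passed over all genes. The list score was −0.23, −0.16 and −0.17 in KO, against −0.19, 0.22 and −0.01 in WT, so it too was highest in WT replicate 2.

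Sebaceous gland genes had the same sign: 9 of 10 were measured, 8 with lower means in KO, and the median difference was −0.32. KO replicate 2 had the lowest list score, −0.76. Without it the median was −0.08, and a block for slide gave −0.02. The fatty acid elongase Elovl3 differed by −0.76 (SE 0.15), the hydroxylase Fa2h by −0.80 (SE 0.19) and the desaturase Scd3 by −0.37 (SE 0.13), each without overlap. Of the 9, these 3 lay wholly below WT, where 11.7% of all genes did. The enzyme Soat1, which makes cholesterol esters, differed by −0.32 (SE 0.22) with overlap. By limma, 3 of the 9 had an unadjusted p under 0.05, beside 11.7% of all genes, and 0 passed over all genes.

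Among the 5 profiles nearest to Aqp3 were those of Sdr16c5, an epidermal retinol dehydrogenase (distance 0.09), the collagen chain Col8a2 (0.14), Xlr3b (0.15) and the predicted gene Gm5476 (0.15). Sdr16c5 read 0.48, 0.38 and 0.51 in KO, against 0.90, 1.54 and 0.60 in WT. These 4 peaked in WT replicate 2 like Aqp3, which follows from choosing them by their distance to it.

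Aqp5 gave 2 different pictures from 2 probes to the same transcript. Its brighter probe read 282, 212 and 208 units in KO, against 189, 343 and 221 units in WT, and, scaled to each array, −1.10, −1.26 and −1.25 in KO, against −1.01, −0.51 and −0.98 in WT. By this probe all 3 KO skins lay below all WT skins, with a difference of −0.37 (SE 0.17), or −0.21 without WT replicate 2. The dimmer probe read 246, 165 and 71.2 units in KO, against 63.5, 99.9 and 82.3 units in WT, a difference of 0.52 (SE 0.46 from the spread between arrays) with overlap. KO replicates 1 and 2 were high by this probe, while KO replicate 3 lay below the lowest WT skin once scaled to its array. Averaging both probes gave a difference of 0.07, so the sign for Aqp5 depends on the probe.

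Hair shaft and inner root sheath markers had that same split among KO skins. Of 13, 9 were measured, all 9 with higher means in KO, and the median difference was 3.97, or −0.17 with KO replicate 3 as the only KO array. Of the 9, 2 did not overlap, and both lay wholly above WT. Of all genes, 19.3% did not overlap and 7.58% lay wholly above WT. The list score was 6.11, 5.31 and −0.17 in KO, against −0.11, 0.25 and −0.05 in WT. The log2 of their summed level lay between 2.55 and 8.23 in KO and between 2.49 and 3.0 in WT. The hair keratin Krt86 differed by 4.34 (SE 1.40), the follicle deiminase Padi3 by 3.97 (SE 1.39), the hair keratin Krt31 by 2.61 (SE 1.05) and the root sheath keratin Krt73 by 2.02 (SE 0.86). Padi3 read 1.67, 0.87 and −3.96 in KO, against −4.64, −4.68 and −4.02 in WT. Its signal in WT and in KO replicate 3 was close to background, which limits the size of its difference. Padi3 was the middle gene of the list, so the same limit holds for the median. By limma, 3 of the 9 had an unadjusted p under 0.05, beside 11.7% of all genes, and 0 passed over all genes. Their part in the dimmer Aqp5 probe was not tested.

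Gland and duct genes, the setting in which Aqp5 is best known, were sparse: 6 of 11 were measured, 3 with higher and 3 with lower means in KO, and the median difference was 0.10, from −0.06 without KO replicate 3 to 0.14 without KO replicate 1. Foxa1, Cftr, Krt8, Chrm3 and Atp6v1b1 did not pass the filter on dim probes. The duct keratin Krt19 differed by 0.78 (SE 0.28) with overlap, the salt cotransporter Slc12a2 by 0.28 (SE 0.13) without overlap, the factor Foxi1 by 0.31 (SE 0.25) and the keratin Krt18 by −0.59 (SE 0.55). By limma, 1 of the 6 had an unadjusted p under 0.05, a share near the 11.7% of all genes, and 0 passed over all genes.

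**Figure D3:**
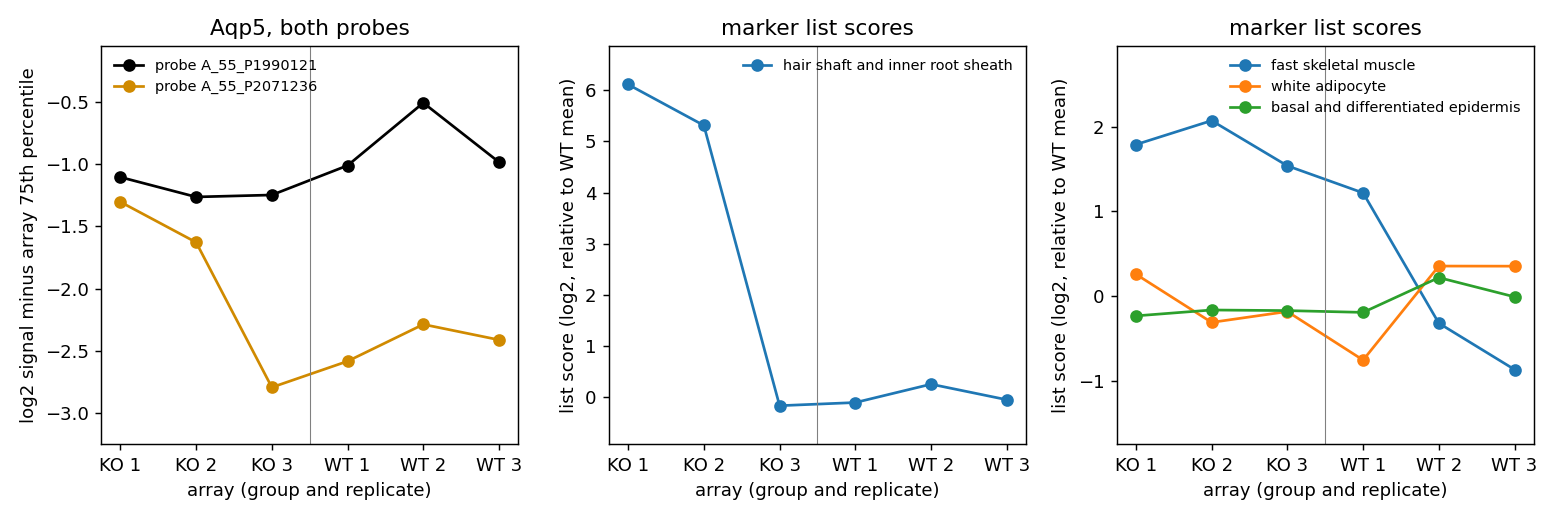
By array (KO left, WT right), log2 signal minus the array's 75th percentile for the 2 Aqp5 probes (left panel) and list scores for hair shaft and root sheath (middle) and for fast muscle, white fat and epidermis (right); each point is 1 array. The dimmer Aqp5 probe lies at −1.30 and −1.63 in KO replicates 1 and 2 and at −2.79 in KO replicate 3, and the hair score is high in the first pair of skins.

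Aqp7, the glycerol exit channel of fat cells, read 218, 118.0 and 129 units in KO, against 104.5, 209 and 176 units in WT. KO replicate 1 was the highest skin in units and WT replicate 1 the lowest. Scaled to each array it read −1.47, −2.11 and −1.93 in KO, against −1.86, −1.22 and −1.31 in WT. On that scale WT replicate 2 was the highest skin and KO replicate 2 the lowest, and the groups overlapped. The log2 means were −1.84 ± 0.33 in KO and −1.47 ± 0.35 in WT (SD, n = 3 each), a difference of −0.37 (SE 0.24). Within slides 1 and 2 it was −0.07 and −0.21, and adding the muscle score as a covariate gave 0.17.

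White fat markers had no common direction either. All 12 of 12 were measured, 5 with higher and 7 with lower means in KO, with a median difference of −0.15. That median ran from −0.52 (WT replicate 1 left out) to 0.06 (WT replicate 3 left out), was near 0 when either KO replicate 2 (−0.01) or WT replicate 2 (0.003) was left out and −0.09 when KO replicate 3 was, and a block for slide gave 0.14. The list score was 0.26, −0.31 and −0.18 in KO, against −0.76, 0.36 and 0.35 in WT, so WT replicate 1 was lowest and KO replicate 1 highest within its group, as for Aqp7. The adipokine Lep differed by −1.78 (SE 0.60), the carbonic anhydrase Car3 by 0.77 (SE 0.14), the glucose carrier Slc2a4 by 1.43 (SE 0.31) and the protease Cfd by 0.65 (SE 0.39). Slc2a4 and Car3 are also muscle genes. By limma, 3 of the 12 had an unadjusted p under 0.05, beside 11.7% of all genes, and 0 passed over all genes.

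Of 15 genes of glycerol and triglyceride handling, all measured, 5 had higher and 10 lower means in KO, and 4 did not overlap, where 19.3% of all genes did not. The median difference of −0.26 became −0.007 with slide as a block, −0.11 when replicate 2 of either group was left out, and −0.42 or −0.43 when KO or WT replicate 1 was. The monoglyceride lipase Mgll differed by −0.67 (SE 0.16), against 0.38 (SE 0.13) for the lipin Lpin1, 0.53 (SE 0.19) for the acyltransferase Gpam and 0.55 (SE 0.21) for the glycerol phosphate dehydrogenase Gpd1. The glycerol kinase Gk differed by −0.28 with overlap. By limma, 4 of the 15 had an unadjusted p under 0.05, beside 11.7% of all genes, and 0 passed over all genes.

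Aqp9, known from liver and leukocytes, was the dimmest member. It read 37.9, 20.1 and 28.4 units in KO, against 25.1, 53.7 and 34.6 units in WT. It was well above background in 2 of 3 KO skins and in all 3 WT skins, so it entered the fit through WT. Scaled to each array it was −4.00, −4.66 and −4.12 in KO, against −3.92, −3.18 and −3.66 in WT, without overlap, though KO replicate 1 and WT replicate 1 nearly met. The difference was −0.67 (SE 0.25), −0.20 on slide 1, −0.58 on slide 2 and −0.18 after normexp and quantile normalization. Of 10 neutrophil markers 6 were measured, all 6 with higher means in KO and with overlap, and the median difference was 0.22. That sign rested on KO replicate 1: the list score was 1.15, −0.14 and −0.12 in KO, against 0.17, −0.18 and 0.21 in WT, and without that array the median was −0.12. It was 0.06 without WT replicate 2, 0.41 to 0.50 without KO replicate 2 or 3, and 0.57 with slide as a block. The receptor Csf3r differed by 0.20 (SE 0.18), the peptide Camp by 0.16 (SE 0.17), the protease Mmp9 by 0.13 (SE 0.19) and Retnlg by 0.49 (SE 0.77). By limma, 0 of the 6 had an unadjusted p under 0.05, beside 11.7% of all genes, and 0 passed over all genes.

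Aqp1 had close means in both groups. It read 16480, 16920 and 18070 units in KO, against 11900, 14180 and 14080 units in WT, and after scaling to each array its means were 5.00 ± 0.22 in KO and 4.95 ± 0.08 in WT (SD, n = 3 each). The difference was 0.06 (SE 0.14), with overlap, so raw units above WT in every KO skin went with brighter KO arrays. The 75th percentile of the signal was 607, 509 and 493 units in KO, against 380.3, 488 and 438 units in WT.

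Endothelial markers, from cells in which Aqp1 is abundant, also had close means. All 12 of 12 were measured, 6 with higher and 6 with lower means in KO, with differences from −0.21 to 0.31. The sialomucin Emcn differed by −0.21 (SE 0.10), the receptor Tek by 0.31 (SE 0.15), the diaphragm protein Plvap by −0.20 (SE 0.11) and the clotting factor Vwf by 0.25 (SE 0.15). Red blood cell genes, 6 of 9 measured, had a median difference of 0.55, with 5 of the 6 higher in mean. Leaving out WT replicate 2 gave 0.22, KO replicate 2 0.29 and WT replicate 1 0.90, while a block for slide gave 0.17 and adjusting for the muscle score gave −0.54. The anion exchanger Slc4a1 differed by 1.70 (SE 0.49), the globins Hbb-bs by 0.54 (SE 0.32) and Hba-a1 by 0.74 (SE 0.46), and the blood group protein Kel by −0.35 (SE 0.26). Slc4a1 read −3.22, −3.18 and −3.98 in KO, against −4.64, −4.57 and −6.26 in WT. Its WT signal was close to background, which limits the size of its difference. By limma, 0 of the 12 endothelial and 1 of the 6 red blood cell genes had an unadjusted p under 0.05, where 11.7% of all genes did, and 0 of either list passed over all genes. The red blood cell gene was Slc4a1.

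Aqp11, an intracellular aquaporin, did not separate the groups by either of its 2 probes. The brighter read 120.3, 69.2 and 109.9 units in KO, against 49.7, 76.4 and 79.4 units in WT, a difference of 0.23 (SE 0.22) with overlap. The dimmer read 63.2, 40.8 and 40.7 units in KO, against 34.1, 32.1 and 45.6 units in WT, a difference of 0.06 with overlap. The lowest skin was WT replicate 1 by the brighter probe and WT replicate 2 by the dimmer.

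Across the family, all 7 members passed the filter on dim probes, Aqp9 through WT alone. By limma, 0 of the 7 passed the threshold over all genes, where 5 of 22823 genes and transcripts did (0.0219%). KO and WT did not overlap for 3 of the 7, Aqp4 above WT and Aqp5 and Aqp9 below; over all genes 7.58% lay wholly above WT and 11.7% wholly below. Because these differences were known when the genes were picked, nothing is read from those shares. The median difference was −0.37 over the 7 and −0.16 over the 6 that were well above background on every array, beside −0.09 over all genes and transcripts.

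The remaining relatives were mostly not well above background. Of Mip, Aqp2, Aqp6, Aqp8 and Aqp12, only Aqp2, the vasopressin-regulated channel of the kidney and the neighbour of Aqp5, passed the filter. It read 236, 82.2 and 236 units in KO, against 165, 198 and 200.3 units in WT, a difference of −0.47 (SE 0.39; limma adjusted p = 0.614). KO replicate 2 was the low skin, and without it the difference was 0.0003. Aqp6 and the lens channel Mip were not well above background on any array. The brighter Aqp8 probe was well above background in 2 KO skins and 1 WT skin, and the Aqp12 probe in 1 WT skin.

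Genes of ion and water balance, which set the gradients that water follows, were measured for 15 of 16, with 9 higher and 6 lower means in KO, a median difference of 0.06 (0.008 without WT replicate 1) and 8 without overlap, where 19.3% of all genes did not overlap. The sodium pump subunit Atp1b2 read 1.91, 2.22 and 1.49 in KO, against 1.23, 0.24 and 0.32 in WT, a difference of 1.28 (SE 0.32), with WT replicate 1 again the highest WT skin. The inositol carrier Slc5a3 differed by −1.09 (SE 0.36) and the aldose reductase Akr1b3, which makes sorbitol, by 0.30 (SE 0.11). By limma, 5 of the 15 had an unadjusted p under 0.05, beside 11.7% of all genes, and 0 passed over all genes.

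**Figure D4:**
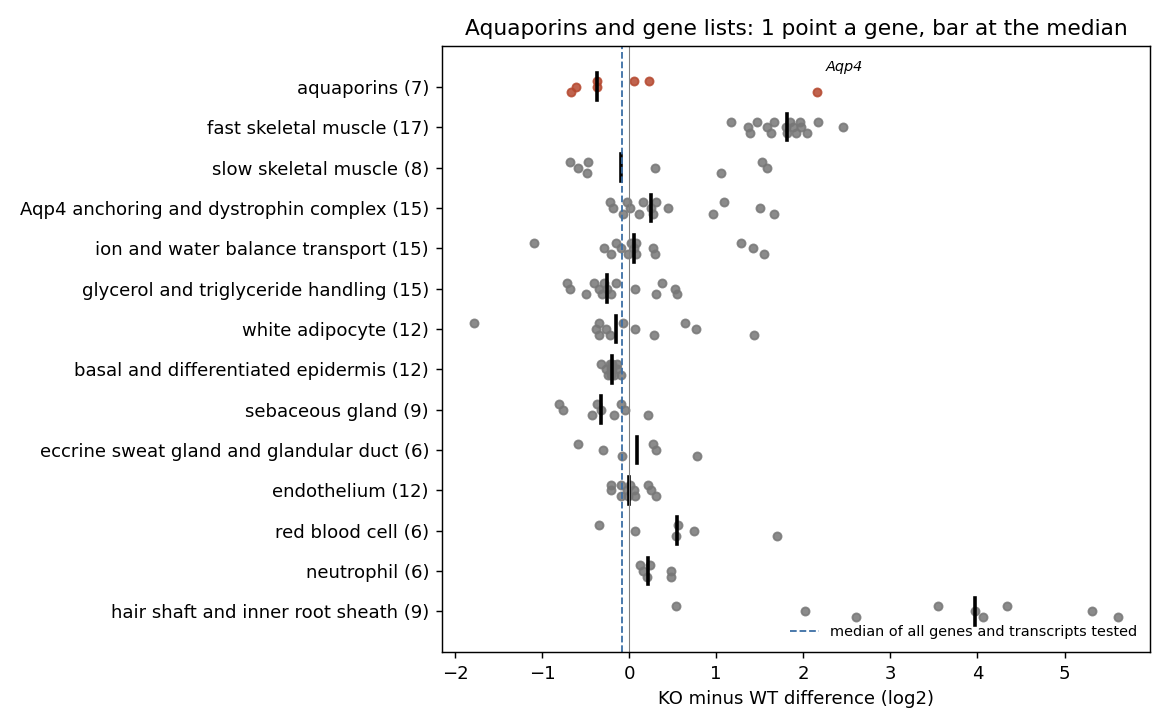
KO minus WT difference (log2) of each aquaporin and each measured member of 13 gene lists, with the number measured in brackets; each point is 1 gene, the bar is the median and the dashed line the median of all genes and transcripts tested. Aqp4, at 2.16, lies within the range of the fast muscle genes (1.17 to 2.45), and the other aquaporins lie between −0.67 and 0.23.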

How the data were processed

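The scanner files hold spot intensity values deposited by the authors from Agilent Feature Extraction 11.5.1.1, per the file headers, background-subtracted and detrended, with no normalization between arrays. Other columns used are flags (0 or 1) that, per the file headers, mark outliers, saturation and signal well above background. No spot was saturated, and precision is limited by having 3 arrays a group.

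The authors also deposited a table of log2 values. Set against the 6 arrays on 27353 mean-centred probes, all 3 columns headed KO matched the WT arrays and all 3 headed WT matched the KO arrays, number by number (correlation 0.998 to 1, against −0.627 to −0.245 with the arrays they were headed as). The table was therefore not used for comparisons. The submitters' processing notes name limma.

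Values are log2 of the processed signal minus the 75th percentile of non-control probes on that array. Outlier spots were dropped before averaging, and 31 of 55681 probes lacked a value on some array. Unversioned accessions were looked up in a RefSeq table of GRCm38.p6, which named 27497 probes; the array grid is on mm9, so only names and gene order came from it. A probe was kept if it was well above background throughout the KO or the WT arrays (30082 probes), and the brightest stood for its gene. KO was compared with WT by limma 3.58.1 (R 4.3.3), two-sided, with Benjamini-Hochberg adjustment over 22823 genes and transcripts and a threshold of 0.05; SE values are from this fit unless stated. The labels do not say outright that samples are separate animals, though ages differ within each group. On simulated data (22823 genes, 10 runs) 91.0% of shifts of 3 log2 units were called and 48.9% of those of 1 log2 unit. Of the calls, 5.21% were false. The simulated noise was independent between genes, with no slide or tissue pattern shared by many genes. These shares therefore need not hold for the real arrays.

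All aquaporins are named, with up to 4 members of smallest unadjusted p in each list, other list members where a sentence turns on them (chosen after their values were seen), and the 5 nearest profiles of each aquaporin well above background on every array that spanned at least 1 log2 unit; a few genes that this rule names are not reported here. The members and the gene lists were chosen with earlier results of these data known. The normexp alternative (offset 50) used the median spot signal where the mean had been planned. Other alternatives were no filter on dim probes, the mean of probes, every probe fitted, slide or replicate number as a block, age as a covariate, leaving out each array and, chosen after seeing the data, the fast muscle score as a covariate and KO replicate 3 as the only KO array.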

Additional observations from a re-analysis of the deposited data

How the results depend on the processing

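The count of calls over all genes and transcripts, 5 as reported, was unstable. It was 8 after normexp and quantile normalization, 2 without the filter on dim probes, 3 with every probe fitted, 1 with slide as a block, 139 with age as a covariate and 0 once the muscle score was one or with KO replicate 3 as the only KO array, both chosen after seeing the data. Leaving out 1 array gave 2 to 303 calls. The median difference over the 6 aquaporins well above background on every array, −0.16 as reported, was 0.0665 with the mean of the probes of a gene, 0.0665 with every probe fitted, −0.38 with age as a covariate and 0.13 once the muscle score was a covariate, a setting chosen after seeing the data. With 1 array left out it ran from −0.19 to −0.10. With the replicate number as a block the count of calls was 0 and the differences were the same by construction. Same-numbered arrays had correlations of deviations of −0.13, −0.04 and 0.08, so the numbers do not pair the samples. With 1 array left out, differences ran from 1.896 to 2.52 for Aqp4, −0.87 to −0.27 for Aqp3, −0.46 to −0.21 for Aqp5, −0.57 to −0.24 for Aqp7, −0.84 to −0.47 for Aqp9, 0.08 to 0.44 for Aqp11 and −0.04 to 0.18 for Aqp1. Medians of the gene lists also moved with single arrays, slide and age. Age turned the sign for Aqp11 (−0.36) and Aqp1 (−0.03), slide as a block gave −0.0003 for Aqp1, the mean of the probes turned it for Aqp5 (0.07) and the muscle score for Aqp7 (0.17); the cause was not tested. Signal close to background limits Aqp9.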
